A study of Homo sapiens with 36 samples.

Results

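Fc receptors are the proteins through which cells bind the constant part of antibodies. Of the 35490 genes summed from the deposited transcripts, 6 are described here: FCGRT, FCGR1A, FCGR2A, FCGR2B, FCER1G and FCAR. They were chosen by gene symbol as Fc receptors and their shared signalling chain, and the higher FCGRT level with A9 in both cell lines was part of the choice. For that reason the A9 values of these 6 genes are given as a description, and no p-value or call on that contrast is used as support. All 6 had every transcript of their annotation in the tables.

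The series measured poly(A) RNA by bulk sequencing in MOLM-13 and MONO-MAC-6, 2 established human acute myeloid leukaemia lines that the labels give as genotype WT. Cells were kept for 72 h with DMSO, the solvent control, or with A9, a PROTAC, a small molecule that brings target proteins to the cell's degradation machinery. The design text names IKK2 and NR4A1 as targets and the series title names IKK1 and NR4A1. A9 was used at 0.125 µM in MOLM-13 and at 0.25 µM in MONO-MAC-6, and the effects of line and dose cannot be told apart. Each of the 4 groups had 9 libraries, and the 3 libraries sharing a first number were averaged, which left 3 samples per group. Values are TPM, in which each transcript's estimate is divided by its length and each library has 1 common total, and mean values are given ± SD with n = 3. Nothing in the labels says that the 3 samples came from separate cultures, so the tests measure the spread between these samples, which may be technical.

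FCGRT encodes the heavy chain of the neonatal Fc receptor, which pairs with beta-2-microglobulin, binds IgG and albumin in acidic endosomes and returns them to the cell surface. The other receptors act at the surface of phagocytes. FCGR1A, FCGR2A and FCGR2B bind IgG and FCAR binds IgA. FCGR1A and FCAR signal through the ITAM motif of the chain encoded by FCER1G, FCGR2A carries its own ITAM, and FCGR2B carries an inhibitory ITIM.

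The myeloid identity of both lines showed in their markers, of which 7 of 8 exceeded 1 TPM in at least 1 sample of each line. CD14 stayed at or below 0.491 TPM in MOLM-13. The T cell genes CD3E and CD2 and the B cell gene MS4A1 were listed at 0 in every sample, whereas NCAM1 reached 53.2 TPM in MOLM-13. The summed myeloid markers moved with treatment, from 433 to 492 TPM over the DMSO samples and 649 to 761 TPM over the A9 samples in MOLM-13, and from 3444 to 4016 and 8158 to 8469 TPM in MONO-MAC-6. LYZ carried most of that move, at 122 to 141 TPM with DMSO and 317 to 343 TPM with A9 in MOLM-13, and at 3068 to 3624 and 7564 to 7868 TPM in MONO-MAC-6. MPO and ITGAM had overlapping groups in both lines. CD68 and CD14 overlapped in MOLM-13 but were higher with A9 in MONO-MAC-6. There CD68 held 40.3 to 60.2 TPM with DMSO and 160 to 181 TPM with A9, and CD14 held 2.66 to 3.71 and 12.4 to 13.5 TPM. In MONO-MAC-6 the 3 mast cell and basophil markers also moved, from a sum of 27.5 to 37.4 TPM to one of 76.4 to 85.9 TPM, carried by TPSAB1, with FCER1A listed at 0. The part of these markers in the results that follow was not tested, and in bulk RNA a change in the number of cells of a type and a change in RNA per cell cannot be told apart. The first DMSO sample of MONO-MAC-6 stood apart, with a median correlation of 0.960 to the other samples of its line. TPM hold no read counts, so the depth behind each value is unknown.

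FCGRT was the member with higher RNA in the presence of A9 in both lines. The gene (ENSG00000104870) lies on the plus strand at chr19:49506816-49526333 of GRCh38. In MOLM-13 it stood at 47.2, 48.5 and 51.1 TPM in the DMSO samples and at 98.8, 104 and 111 TPM in the A9 samples. The groups did not overlap, and the mean was 49.0 ± 1.98 TPM with DMSO and 105 ± 5.95 TPM with A9, a ratio of 2.14. In MONO-MAC-6 the DMSO samples held 162, 139 and 141 TPM and the A9 samples 250, 265 and 259 TPM. There too all A9 samples lay above all DMSO samples, with means of 147 ± 12.6 and 258 ± 7.88 TPM and a ratio of 1.75.

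On the log2(TPM + 1) scale the FCGRT difference was 1.08 (SE 0.070) in MOLM-13 and 0.81 (SE 0.086) in MONO-MAC-6. Over all genes tested, the median log2 difference in MOLM-13 was -0.046 and that in MONO-MAC-6 was 0.16, and with a median-ratio scaling that brings the latter to 0.029 the FCGRT value in MONO-MAC-6 was 0.66. All genes whose mean reached 1 TPM in any group of a comparison were fitted together (limma, adjusted p under 0.05). FCGRT was the 1 member called among the 5 tested in MOLM-13, where 0.121% of 11602 genes were called and 0.0862% on the higher side, and where 8.58% had A9 samples that all lay above the DMSO samples. In MONO-MAC-6 it was the 1 member called among the 4 tested, where 3.36% of 12876 genes were called, 2.51% were called on the higher side and 27.2% had all A9 samples above. Of those 433 calls 74.6% were on the higher side, and 63.4% of 577 calls with median-ratio scaling. The choice of FCGRT used these contrasts, so nothing is read from those counts. The FCGRT call held in only 2 of 6 fits that left out 1 sample in MOLM-13, and in 4 of 6 in MONO-MAC-6. The call in MONO-MAC-6 was also lost with median-ratio scaling.

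**Figure D1:**
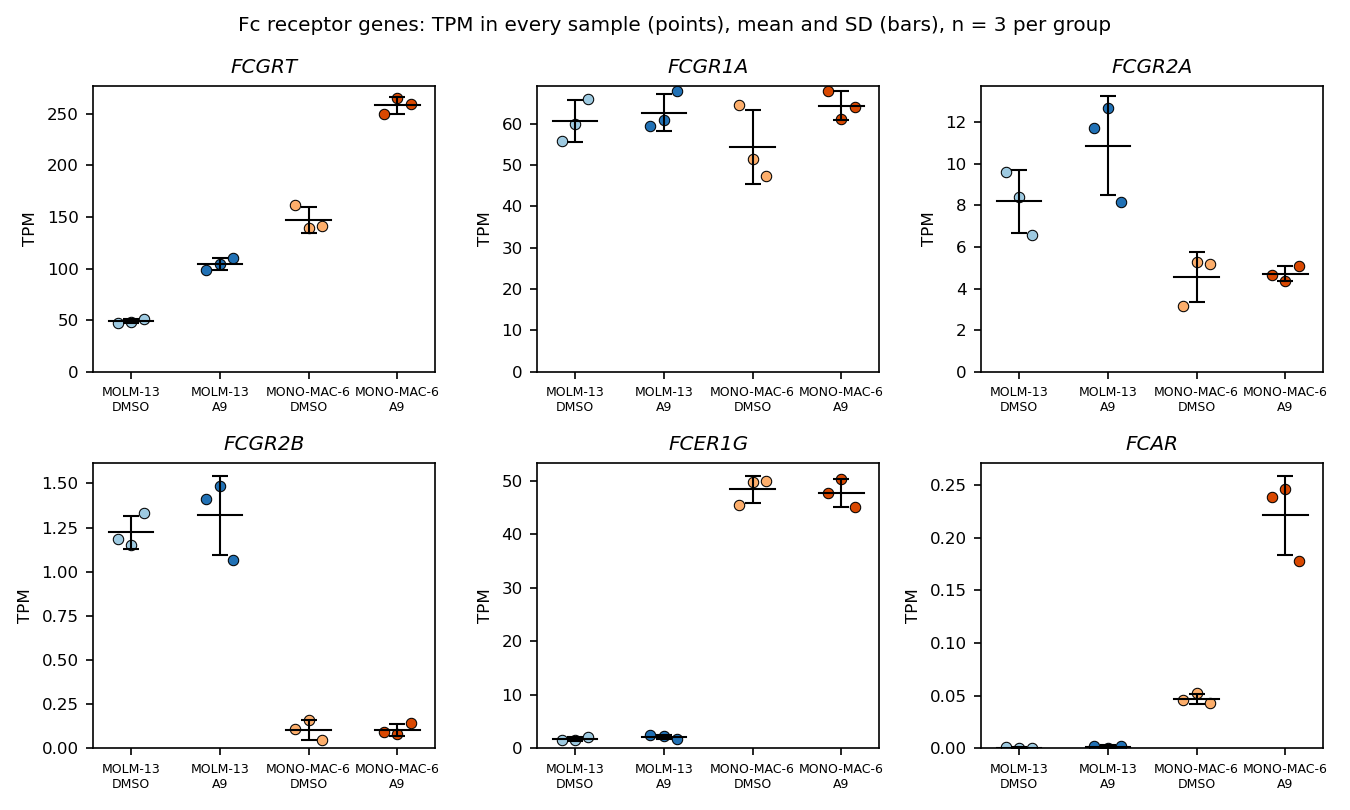
TPM (vertical axes, linear and starting at 0, with a separate scale for each gene) of the 6 Fc receptor genes in the 4 groups, with points for the 3 samples of a group and bars for mean and SD. FCGRT lies higher with A9 in both lines, FCER1G is near 48 TPM in MONO-MAC-6 and near 2 TPM in MOLM-13, and FCAR stays under 0.25 TPM in every sample.

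The higher FCGRT level was spread unevenly over its transcripts. GENCODE lists 18 FCGRT transcripts, and FCGRT-201 (ENST00000221466) and FCGRT-202 (ENST00000426395) were the main ones. FCGRT-201 begins at base 49512279 and FCGRT-202 at base 49513154 of chromosome 19, 875 bases further along. Both have the same coding exons, with the start codon at base 49513401, and so encode the same protein; they differ in the noncoding sequence joined to the first shared exon. The join is printed below for both, since it is what tells them apart, with the first 18 bases of the shared exon in capitals, including the ATG start codon, and the 12 preceding bases in lower case (GRCh38, plus strand).
FCGRT-201: gctgaagggaacGTCGTCCTCTCAGCATGG
FCGRT-202: ctcccgccccagGTCGTCCTCTCAGCATGG
In FCGRT-201 the lower-case bases end exon 1 (chr19:49512279-49512750) and are spliced to exon 2, whereas in FCGRT-202 they lie directly before it (chr19:49513375-49513386). FCGRT-201 holds 472 runs of 31 bases that are missing from FCGRT-202, and FCGRT-202 holds 233 that are missing from FCGRT-201, so reads over the remaining sequence were divided between them by estimation.

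FCGRT-201, the transcript from the upstream start, was about 3-fold higher with A9 in both lines. In MOLM-13 it stood at 18.0, 16.7 and 15.6 TPM with DMSO and at 48.3, 50.4 and 58.0 TPM with A9, a ratio of means of 3.11. In MONO-MAC-6 the DMSO samples held 31.3, 28.2 and 26.3 TPM and the A9 samples 89.3, 91.8 and 93.8 TPM, a ratio of 3.20. The groups did not overlap in either line.

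FCGRT-202, from the downstream start, differed less. It held 16.4, 18.1 and 21.6 TPM with DMSO and 27.8, 30.5 and 27.6 TPM with A9 in MOLM-13, a ratio of 1.53. In MONO-MAC-6 it held 90.9, 74.9 and 81.2 TPM with DMSO and 106, 115 and 110 TPM with A9, a ratio of 1.34. A9 samples lay above DMSO samples here as well.

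As a share of both transcripts together, FCGRT-201 made up 52.3%, 48.1% and 42.0% in the DMSO samples of MOLM-13 and 63.5%, 62.3% and 67.8% in the A9 samples. In MONO-MAC-6 it made up 25.6%, 27.4% and 24.5% with DMSO and 45.7%, 44.4% and 46.1% with A9. The share was thus 17.1 percentage points higher with A9 in MOLM-13 (47.4 ± 5.19% against 64.5 ± 2.90%) and 19.6 points higher in MONO-MAC-6 (25.8 ± 1.47% against 45.4 ± 0.845%). The lines kept different mixtures: MONO-MAC-6 had the larger FCGRT level and the smaller share from the upstream start in both treatments.

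Summing FCGRT transcripts by their first base gave a like picture for the upstream and downstream groups. The 4 transcripts that begin within exon 1 of FCGRT-201 summed to 22.2 ± 0.781 TPM with DMSO and 63.5 ± 4.99 TPM with A9 in MOLM-13, a ratio of 2.86, and to 36.0 ± 3.06 and 109 ± 2.90 TPM in MONO-MAC-6, a ratio of 3.02. The downstream group held the 11 transcripts that begin between exon 1 of FCGRT-201 and the end of its exon 2. Some of these begin inside exon 2, so they do not mark the FCGRT-202 start. This group had a ratio of 1.58 in MOLM-13, and 1.37 was the ratio for MONO-MAC-6. FCGRT-216, a shorter transcript that also begins in the upstream exon, went from 4.30 to 9.23 TPM on average in MOLM-13 and from 3.12 to 10.4 TPM in MONO-MAC-6. All of these values come from the contrast that chose FCGRT and are a description.

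**Figure D2:**
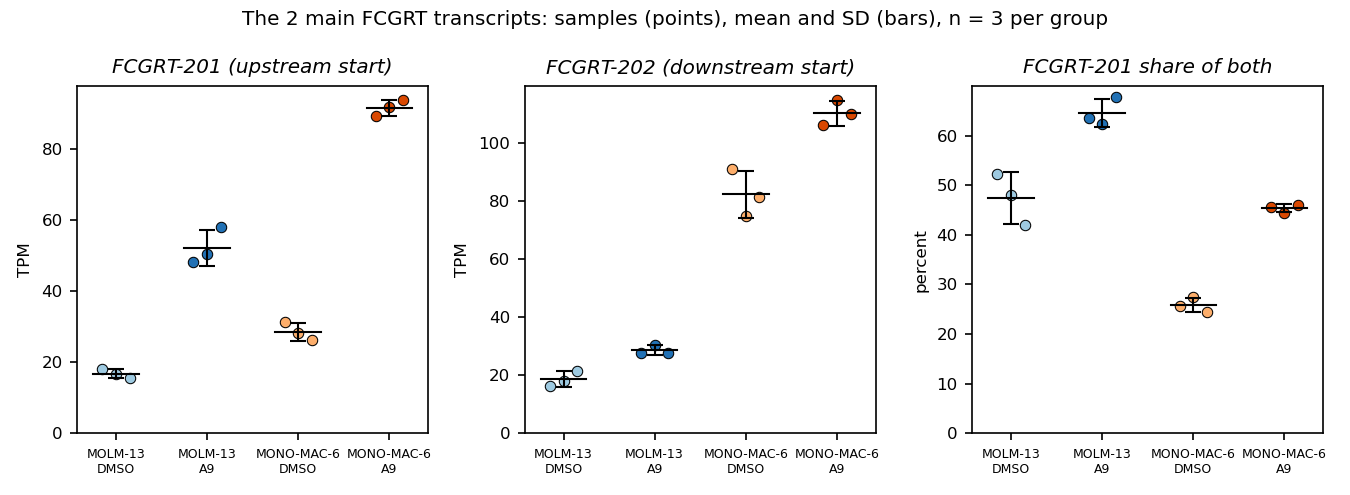
TPM of FCGRT-201 (left) and FCGRT-202 (middle), and the percent that FCGRT-201 makes up of their sum (right), in the 4 groups, with points for samples and bars for mean and SD, n = 3. FCGRT-201 is 3.11-fold and 3.20-fold higher with A9 in MOLM-13 and MONO-MAC-6, and its share is higher in every A9 sample than in any DMSO sample of the same line.

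The level of FCGRT without A9, which the choice did not use, also differed between the lines. It was 3.01-fold higher in MONO-MAC-6 with DMSO than in MOLM-13 with DMSO, a log2 difference of 1.57 (SE 0.092, adjusted p = 3.54e-05, limma), and higher in 3 of 3 samples. In this comparison 48.8% of 12928 genes passed, 30.4% as higher and 18.4% as lower in MONO-MAC-6, so a difference between the lines was common, and line and library preparation cannot be told apart. The A9 effect on FCGRT differed between the lines by -0.27 (SE 0.10) on the log2 scale, MONO-MAC-6 minus MOLM-13, and was not among the 2.99% of 13417 genes called for that difference.

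FCGR1A, the high-affinity IgG receptor, was the most abundant member in MOLM-13 with DMSO. The gene (ENSG00000150337) lies on the plus strand at chr1:149782671-149792518. It held 56.0, 60.0 and 66.0 TPM with DMSO and 59.4, 60.9 and 67.9 TPM with A9 in MOLM-13, which overlap. In MONO-MAC-6 it held 64.6, 51.4 and 47.4 TPM with DMSO and 68.0, 61.1 and 64.1 TPM with A9, which also overlap. The log2 difference was 0.049 (SE 0.089) in MOLM-13 and 0.25 (SE 0.13) in MONO-MAC-6.

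The spread of FCGR1A between MOLM-13 samples, and between the DMSO samples of MONO-MAC-6, lay mostly in 1 noncoding transcript, FCGR1A-204. This processed transcript shares 91.7% of its 31-base runs with the coding FCGR1A-201. In MOLM-13 it varied from 4.18 to 12.6 TPM with DMSO and from 7.96 to 17.8 TPM with A9. In MONO-MAC-6 it varied from 4.42 to 21.2 TPM with DMSO and from 7.42 to 8.93 TPM with A9. The high DMSO value was in the sample that stood apart. Between the A9 samples of MONO-MAC-6, FCGR1A-201 varied more (SD 2.79 TPM beside 0.756 for FCGR1A-204). The coding transcripts FCGR1A-201 and FCGR1A-202 together held 42.7, 40.5 and 41.0 TPM with DMSO and 56.1, 51.2 and 52.4 TPM with A9. On coding transcripts alone the groups did not overlap in MONO-MAC-6, with a ratio of 1.29 and a log2 difference of 0.35. The median log2 difference of all genes on coding transcripts was 0.13 there. With all transcripts summed, 27.2% of all genes tested in that line had all A9 samples above. Median-ratio scaling brought the FCGR1A difference over all its transcripts from 0.25 to 0.099. In MOLM-13 the coding transcripts held 50.3, 52.2 and 52.8 TPM with DMSO and 50.3, 50.4 and 49.3 TPM with A9, a ratio of 0.966. This restriction to coding transcripts was chosen after the values were seen.

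**Figure D3:**
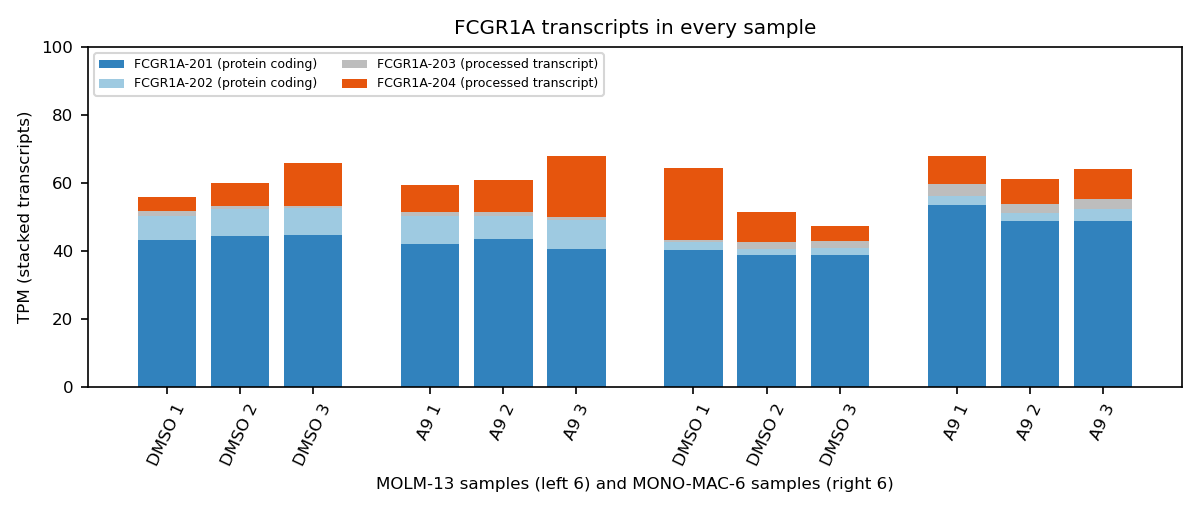
Stacked TPM of the 4 FCGR1A transcripts (vertical axis, linear from 0) in each of the 12 samples, DMSO before A9 within each line. The top block, FCGR1A-204, reaches 21.2 TPM in the first DMSO sample of MONO-MAC-6, while FCGR1A-201 stands higher in the 3 A9 samples of that line than in its 3 DMSO samples.

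In untreated cells the FCGR1A levels of the lines overlapped, at 60.6 ± 5.05 TPM in MOLM-13 and 54.5 ± 8.95 TPM in MONO-MAC-6, a log2 difference of -0.16 (SE 0.14, adjusted p = 0.381, limma). The call changed with the noncoding transcript: on coding transcripts alone the difference was -0.32 (adjusted p = 0.0151, limma), and without the first DMSO sample of MONO-MAC-6 it was -0.29 (adjusted p = 0.0412, limma). Of the 31-base runs of FCGR1A-201, 52.0% also occur in other genes, 46.2% in FCGR1B and 40.6% in the pseudogene FCGR1CP. It is therefore uncertain from which copy reads listed under FCGR1A came. FCGR1CP itself was listed at 2.27 TPM in MOLM-13 and 5.77 TPM in MONO-MAC-6 with DMSO, and FCGR1B was not analysed here. FCGR1A also overlaps HIST2H2BF on the opposite strand, which was at or below 2.75 TPM, and the sources used here do not say whether strand was used in counting.

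FCGR2A, the activating low-affinity IgG receptor with its own ITAM, was lower than FCGR1A in every sample. The gene (ENSG00000143226) lies on the plus strand at chr1:161505430-161524013. In MOLM-13 it held 9.58, 8.41 and 6.58 TPM with DMSO and 11.7, 12.7 and 8.17 TPM with A9. Its A9 range reached into the DMSO range, and the log2 difference was 0.36 (SE 0.20). In MONO-MAC-6 it held 3.15, 5.28 and 5.20 TPM with DMSO and 4.67, 4.36 and 5.09 TPM with A9, a log2 difference of 0.066 (SE 0.19).

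Without A9, FCGR2A was lower in MONO-MAC-6 than in MOLM-13, at 4.54 ± 1.21 against 8.19 ± 1.51 TPM, a ratio of 0.554 and a log2 difference of -0.74 (SE 0.22, adjusted p = 0.0346, limma), lower in 3 of 3 samples. The call was lost with no filter on low values (adjusted p = 0.0596, limma). It was also lost without MOLM-13 DMSO sample 1 (0.107), MOLM-13 DMSO sample 2 (0.109), MONO-MAC-6 DMSO sample 2 (0.0548) or MONO-MAC-6 DMSO sample 3 (0.0525), each an adjusted p from limma. FCGR2A-202, its main transcript, shares 51.7% of its 31-base runs with FCGR2C and 20.7% with FCGR2B, so values of these genes are uncertain where reads could belong to either.

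FCGR2B, the inhibitory IgG receptor, was low in MOLM-13 and lower in MONO-MAC-6. The gene (ENSG00000072694) lies on the plus strand at chr1:161663147-161678654. It held 1.19, 1.15 and 1.33 TPM with DMSO and 1.41, 1.48 and 1.07 TPM with A9 in MOLM-13, overlapping groups with a log2 difference of 0.058 (SE 0.12). In MONO-MAC-6 no sample exceeded 0.162 TPM, and the gene was under the filter of a mean of 1 TPM in a group. It entered the comparison of untreated lines only through MOLM-13, where it had to be higher, so its difference there is no support for anything. The activating FCGR2A exceeded FCGR2B in every sample of both lines.

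The promoters of FCGR1A and FCGR2A are shown because these genes were the surface receptors above 1 TPM in every sample of both lines. The longest run of bases common to their RefSeq windows was looked up. Each sequence below runs from the first base of the RefSeq window (from 250 bases before to 50 after the annotated start, GRCh38.p14, plus strand) to the base before the GENCODE gene start. Capitals mark the shared run of 20 bases.
FCGR1A, chr1:149782444-149782670: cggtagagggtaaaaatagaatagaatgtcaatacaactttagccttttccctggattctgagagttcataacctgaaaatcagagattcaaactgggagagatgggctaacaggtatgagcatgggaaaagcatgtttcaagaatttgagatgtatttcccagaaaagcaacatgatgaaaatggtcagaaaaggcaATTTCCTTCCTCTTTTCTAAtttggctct
FCGR2A, chr1:161505207-161505429: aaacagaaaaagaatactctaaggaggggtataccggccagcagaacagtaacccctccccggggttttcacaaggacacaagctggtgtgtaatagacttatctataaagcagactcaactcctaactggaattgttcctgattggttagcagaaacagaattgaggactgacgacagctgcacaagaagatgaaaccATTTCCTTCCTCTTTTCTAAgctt
The run begins 52 bases before the RefSeq start in FCGR1A and 51 bases before it in FCGR2A. It occurs in 2 of the 34943 promoter windows on either strand. These are the 2 windows it was picked from, and other pairs of windows were not searched, so nothing is read from that count. The run contains, on the opposite strand, GAGGAA, the core letters bound by the myeloid factor PU.1. Of all windows, 27.9% hold GAGGAA at least once on either strand.

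The other motifs searched gave few matches. The FCGRT window (chr19:49512411-49512710) surrounds a RefSeq start at base 49512661 and lies inside exon 1 of FCGRT-201 (chr19:49512279-49512750). It covers neither the GENCODE start of FCGRT-201 nor that of FCGRT-202, so the sequence directly before those starts was not searched. The window held GAGGAA at 1 position and no match to AAAGGTCA, the NBRE letters bound by NR4A receptors, or to the kappaB motif. Those motifs occur in 1.22% and 11.3% of all windows, so a lack of them is the usual case. The FCGR1A window also held TTCNNNGAA, the GAS letters of STAT factors, which 7.66% of windows hold, and the FCGR2A window TATAAA, found in 11.6%. FCGR2B has 2 windows, of which the first held 1 kappaB match and the second held GAGGAA at 2 positions and TTCNNNGAA at 2 positions. The FCER1G window held the GC box GGGCGG, found in 44.9% of windows, and no GAGGAA. FCAR had no entry. A match is a description of letters and shows no binding.

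FCER1G, the ITAM chain that FCGR1A and FCAR signal through, set the lines apart more than any other tested member. The gene (ENSG00000158869) lies on the plus strand at chr1:161215234-161220699. It held 1.54, 1.58 and 2.08 TPM in MOLM-13 with DMSO and 45.5, 49.8 and 50.0 TPM in MONO-MAC-6 with DMSO. The groups were far apart, with a ratio of 28.0 and a log2 difference of 4.18 (SE 0.14, adjusted p = 4.17e-06, limma), higher in 3 of 3 MONO-MAC-6 samples. This contrast was not used to choose the genes, and no 31-base run of FCER1G-201 occurs in another gene.

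FCER1G with A9 overlapped its DMSO levels in both lines. MOLM-13 with A9 held 2.53, 2.26 and 1.73 TPM and MONO-MAC-6 with A9 held 47.7, 50.3 and 45.2 TPM. The log2 difference was 0.21 (SE 0.15) in MOLM-13 and -0.021 (SE 0.089) in MONO-MAC-6. Per sample, the ratio of FCGR1A to FCER1G was 36.4, 38.0 and 31.7 in MOLM-13 with DMSO, a mean of 35.4 ± 3.32, and it was 1.42, 1.03 and 0.948 in MONO-MAC-6 with DMSO, a mean of 1.13 ± 0.250. The receptor and its chain thus stood at similar TPM in MONO-MAC-6 and far apart in MOLM-13. With A9 the mean ratios were 29.9 ± 8.34 and 1.35 ± 0.120.

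FCAR, the IgA receptor, was close to absent from the tables' values. The gene (ENSG00000186431) lies on the plus strand at chr19:54874248-54890472. In MONO-MAC-6 it held 0.0456, 0.0526 and 0.0430 TPM with DMSO and 0.239, 0.246 and 0.178 TPM with A9. The groups did not overlap, but all samples were under the filter and no test was made. In MOLM-13 no sample exceeded 0.00243 TPM. FCAR-203 carried 54.9% of the FCAR signal with DMSO and 88.4% with A9 in MONO-MAC-6.

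The order of levels, which TPM allow because they are corrected for length, differed by group. In MOLM-13 with DMSO it was FCGR1A, FCGRT, FCGR2A, FCER1G, FCGR2B and FCAR, with no overlap between the samples of neighbours. On coding transcripts alone FCER1G (lowest 1.08 TPM) and FCGR2B (highest 1.11 TPM) overlapped there. With A9, FCGRT moved above FCGR1A in MOLM-13, and the FCGRT to FCGR1A ratio went from 0.809 ± 0.0347 to 1.67 ± 0.0412. In MONO-MAC-6 with DMSO FCGRT led at 2.73 ± 0.231 times FCGR1A. FCGR1A and FCER1G followed with overlapping ranges, then FCGR2A, then FCGR2B and FCAR with overlapping ranges. With A9 FCGRT stood at 4.02 ± 0.336 times FCGR1A, and FCAR was above FCGR2B with no overlap between samples. Their single libraries did overlap, at 0.010 to 0.476 TPM for FCAR and 0.024 to 0.230 TPM for FCGR2B.

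**Figure D4:**
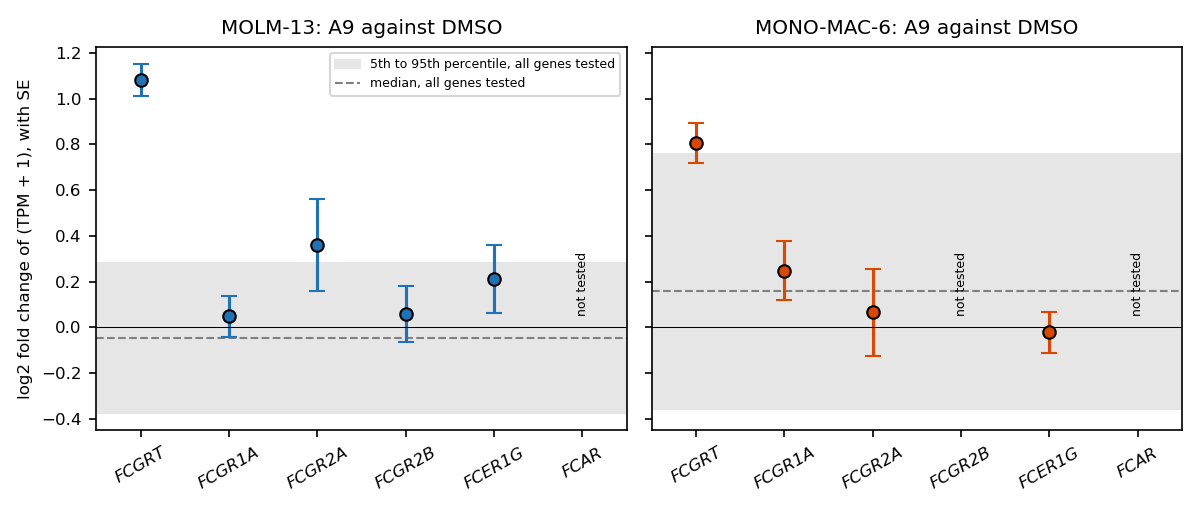
log2 difference of TPM + 1 between A9 and DMSO (vertical axis) for the 6 Fc receptor genes in MOLM-13 (left) and MONO-MAC-6 (right), with SE bars; the grey band spans the 5th to 95th percentile of all genes tested and the dashed line is their median. FCGRT lies above the band in both lines, at 1.08 and 0.81, and genes under the filter are marked as not tested.

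The genes around the Fc receptors were read from 7 lists with 76 entries, covering other Fc receptors, FCGRT partners, MHC class I-like chains, signalling below the receptors, the phagocytic cup and regulators. In MOLM-13, 0 of 57 tested genes passed the threshold (limma), 7 of them at an unadjusted p under 0.05 (7.89% of all genes tested there were), and their median log2 difference was -0.11 beside -0.046 for all genes. In MONO-MAC-6, 3 of 55 were higher and 1 lower, beside 2.51% and 0.854% of all genes tested there, with a median of 0.28 beside 0.16 for all genes. The 3 were FGR, TYROBP and SPI1, and the 1 was CALR.

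The activating signalling list held 2 of those calls, of 15 genes tested. TYROBP, an ITAM chain like FCER1G but used by other receptors, held 10.8, 8.73 and 8.82 TPM with DMSO and 40.4, 56.5 and 48.4 TPM with A9 in MONO-MAC-6. The groups were well apart, with a log2 difference of 2.24 (SE 0.16, adjusted p = 0.00207, limma). FGR, a Src family kinase that phosphorylates ITAMs, held 7.76, 11.9 and 12.4 TPM with DMSO and 54.5, 72.3 and 65.5 TPM with A9 in the same line, a log2 difference of 2.49 (SE 0.20, adjusted p = 0.0029, limma). Thus in MONO-MAC-6 TYROBP passed the test while FCER1G, the chain of the Fc receptors, lay between 45.2 and 50.3 TPM in all 6 samples.

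These 2 genes did not pass in MOLM-13. All A9 samples lay above all DMSO samples for both, as they did for 8.58% of all genes tested there. TYROBP went from 35.8 ± 2.85 to 42.4 ± 1.74 TPM (log2 0.24, adjusted p = 0.522, limma), and FGR from 0.789 ± 0.124 to 1.5 ± 0.282 TPM (log2 0.48, adjusted p = 0.324, limma), a level at which the added 1 TPM makes the log2 difference smaller. The difference of effect between the lines passed its own test for both: by 2.0 for TYROBP (adjusted p = 0.000163) and 2.01 for FGR (adjusted p = 0.00163), limma interaction over 12 samples, in which 1.92% of genes were called as higher in MONO-MAC-6. SYK, the kinase that binds phosphorylated ITAMs, had a log2 difference of -0.13 in MOLM-13, and its difference for MONO-MAC-6 was 0.34, both with overlapping groups. INPP5D, the phosphatase that acts below FCGR2B, differed by -0.36 and 0.087, also with overlap, and 0 of 8 and 0 of 7 genes of the inhibitory list passed.

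Among FCGRT partners, B2M, its light chain, stayed far above FCGRT. It held 775 ± 18.7 TPM with DMSO and 730 ± 24.7 with A9 in MOLM-13 (log2 -0.087). In MONO-MAC-6 it held 1884 ± 107 and 2075 ± 64.3 TPM (log2 0.14, adjusted p = 0.353, limma). All A9 samples lay below the DMSO samples in MOLM-13 and above them in MONO-MAC-6, and B2M was called in neither line. In MONO-MAC-6, 27.2% of all genes tested had all A9 samples above. The ratio of B2M to FCGRT was 15.8 ± 0.285 with DMSO and 6.99 ± 0.363 with A9 in MOLM-13, and 12.8 ± 1.23 and 8.04 ± 0.00662 in MONO-MAC-6. Of the 15 annotated B2M transcripts 11 were used here, so its level is uncertain. CALR, a chaperone that helps fold such heavy chains, fell in MONO-MAC-6 from 3501 ± 107 to 2400 ± 125 TPM, a log2 difference of -0.55 (adjusted p = 0.0204, limma). In MOLM-13 CALR went from 1927 ± 20.0 to 1606 ± 43.9 TPM and was not called (log2 -0.26, adjusted p = 0.168, limma).

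SPI1, which encodes PU.1, went from 262 ± 13.4 to 340 ± 4.09 TPM in MONO-MAC-6 (log2 0.38, adjusted p = 0.0452, limma). In MOLM-13 it held 157 to 165 TPM with DMSO and 169 to 191 TPM with A9 and was not called. There 8.58% of all genes tested had all A9 samples above. All 7 genes of the regulator list lay higher in every A9 sample of MONO-MAC-6 than in every DMSO sample. That separation was also shown by 27.2% of all genes tested in MONO-MAC-6. SPI1 and CALR each lost their call in 5 of 6 fits that left out 1 sample, keeping it only without the first DMSO sample of MONO-MAC-6. Both also lost it with median-ratio scaling, where the SPI1 difference was 0.23 (adjusted p = 0.389, limma), and SPI1 lost it with no filter. FGR and TYROBP kept theirs in 6 of 6. Of the 21 other Fc receptor entries, 0 of 6 tested in MOLM-13 and 0 of 5 in MONO-MAC-6 passed. FCER2, a receptor of IgE named after its values were seen, held 29.7 ± 0.837 TPM with DMSO and 17.8 ± 3.37 TPM with A9 in MONO-MAC-6, with no overlap (log2 -0.72, adjusted p = 0.0563, limma). FCGR3A, the receptor of natural killer cells and some monocytes, was at or below 0.00873 TPM in every sample.

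**Figure D5:**
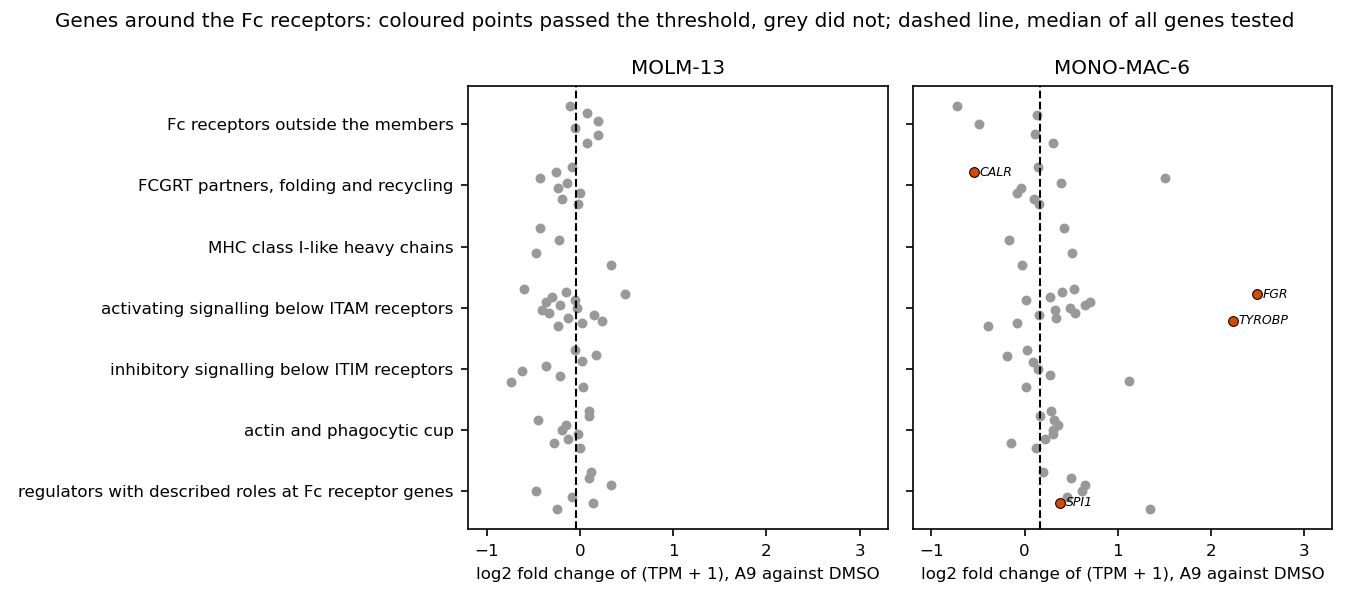
log2 difference of TPM + 1 between A9 and DMSO (horizontal axis) for every tested gene of the 7 lists (rows) in MOLM-13 (left) and MONO-MAC-6 (right); the dashed line is the median of all genes tested. In MONO-MAC-6 the coloured points FGR, TYROBP and SPI1 passed the threshold on the higher side and CALR on the lower, and no list gene passed in MOLM-13.

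The genes whose pattern over the 12 samples was most like that of FCGRT, after removing each line's mean and among 8054 genes with at least 5 TPM in each line, were TAX1BP3 (Pearson r 0.988), ZNF692 (0.988), S100A8 (0.985), S100A9 (0.981) and CYSTM1 (0.980). These samples share the treatment contrast, so a high r reflects a higher level with A9 in both lines, and it is given as a description. By Spearman's rho the first 5 were S100A8, S100A9, PNPLA2, PRTN3 and ATP6V1F. FCGR1A came at position 823 by Pearson r, with 0.536.

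On the chromosome, none of the 3 protein-coding genes on either side of FCGRT was called in either line, and PRRG2 was under the filter in both. The nearest, RCN3, begins 1285 bases after the end of FCGRT. It went from 3.49 ± 0.063 to 7.10 ± 0.912 TPM in MOLM-13, with no overlap (log2 0.85, adjusted p = 0.0864, limma). In MONO-MAC-6 it held 22.5 ± 4.31 TPM with DMSO and 21.1 ± 1.15 TPM with A9, which overlap.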

How the data were processed

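Poly(A) RNA of 36 libraries was sequenced by the submitters. The deposited tables hold TPM per transcript, made by the authors with kallisto on GRCh38, per the submitters' processing notes, which also name limma; versions are not given in the sources used here. Of 207175 transcripts, 162561 (78.5%) matched GENCODE 29, holding 89.9% to 91.4% of the TPM of a library, and were summed to 35490 genes. The design text states 3 replicates, so libraries sharing a first number were averaged; their median SD on the log2 scale was 0.0692, beside 0.173 for libraries sharing a second number. Genes whose mean reached 1 TPM in any group were fitted as log2(TPM + 1) in limma 3.58.1 (R 4.3.3, eBayes with trend and robust), with two-sided p-values, Benjamini-Hochberg adjustment over every gene tested and a threshold of 0.05. For 3 against 3 samples the smallest p of an exact permutation test is 0.1. Data were simulated with 200 genes changed by 1.5 on the log2 scale. Of these, 85.5% were called in MOLM-13, 79% in MONO-MAC-6 and 70% between the lines, with 5, 8 and 3 calls among unchanged genes. That change is larger than the A9 difference of FCGRT in either line, and the simulated noise was independent between genes. The rates therefore do not apply to smaller differences or to deviations shared by many genes of a sample.

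The members and lists were chosen with earlier results of these data known. Named genes were the 6 members, up to 4 list genes per list past the threshold, B2M, TYROBP, SYK and INPP5D, the 5 genes most like FCGRT and its 3 neighbours on each side; FCER2, FCGR1CP, FCGR3A, HIST2H2BF, the 3 genes named for their Spearman's rho and the markers were added after their values were seen. A list gene and a marker are not reported here and were left out of the counts over lists and markers. Alternatives were a pseudocount of 0.1, no filter, averaging by the second number, median-ratio scaling, leaving out each sample, a replicate block and, added later, protein-coding transcripts only. Promoters came from RefSeq (GRCh38.p14), with windows for 5 of the 6 members, and motifs were searched on both strands. The other steps used Python 3.11.15, pandas 2.3.3, numpy 2.4.6 and matplotlib 3.10.9.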

Additional observations from a re-analysis of the deposited data

Results flagged for a closer look

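The A9 effect differed between the lines for 2 genes of the activating signalling list, by a limma interaction over 12 samples. The log2 difference in MONO-MAC-6 minus that in MOLM-13 was 2.01 for FGR and 2.0 for TYROBP. Both kept their call in 12 of 12 fits that left out 1 sample and in 6 of 6 other settings. The dose was higher in MONO-MAC-6, and its effect cannot be told apart from that of the line.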

How the results depend on the processing

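FCGRT kept its direction under every alternative run. Its log2 difference was 1.04 to 1.12 in MOLM-13 and 0.77 to 0.88 in MONO-MAC-6 when single samples were left out, and with median-ratio scaling it was 0.66 in MONO-MAC-6. The FCGRT-201 share difference was 14.4 to 19.5 points in MOLM-13 and 18.9 to 20.4 points in MONO-MAC-6 without single samples.

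Counts of called genes moved more. In MOLM-13 the 14 calls became 4 with no filter, 51 with median-ratio scaling, 5439 when averaged by the second number, and 2 to 8 without single samples (2 without A9 sample 1). In MONO-MAC-6 the 433 calls became 254 with no filter, 8705 by the second number, and 59 to 3205 without single samples (3205 without DMSO sample 1). For the difference between the lines the 401 calls became 8507 by the second number and 197 to 549 without single samples, and for the untreated lines the 6308 calls became 11059 by the second number and 4645 to 8069 without single samples. FCGR1A between untreated lines passed on coding transcripts alone (-0.32) and by the second number (-0.15). Each sample averaged by the second number mixes all 3 first numbers.

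Same-numbered DMSO and A9 samples deviated together in some pairs and not in others, so the numbers were not taken as pairs: correlations were 0.388, -0.0775 and 0.690 in MOLM-13 and -0.0360, 0.10 and -0.110 in MONO-MAC-6, and not every sample correlated best with its own number. A replicate block gave 87 calls in MOLM-13, 94 in MONO-MAC-6 and 207 for the difference. With it FCGRT, SPI1 (adjusted p = 0.177, limma) and CALR (adjusted p = 0.126, limma) were not called in MONO-MAC-6. TPM give no counting error, so differences of genes near 1 TPM, such as FCGR2B, are limited by an unknown depth.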
